A study of Saccharomyces cerevisiae with 3 samples.

Results

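Transcripts of the enzymes that make guanosine monophosphate (GMP) were followed in budding yeast (Saccharomyces cerevisiae) lacking GCR1 and in its wild type. The genes were the IMP dehydrogenases IMD2 (YHR216W), IMD3 (YLR432W) and IMD4 (YML056C) and the GMP synthetase GUA1 (YMR217W), found by their gene symbols in the annotation of the array's probes. They comprised 4 of 5598 named genes and 6 of 10807 probes, with 2 probes each for IMD3 and GUA1 and 1 probe each for IMD2 and IMD4. The genes had been picked for their ratios on these same arrays, so their values are a description and carry no test.

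GCR1 encodes an activator of glycolytic gene transcription. The gcr1 null strain and the wild type strain grew in YEP medium with 3% pyruvate to early or middle log phase. The mutant's and the wild type's RNA shared 1 array for each time: just before glucose was added (0 min) and at 20 and 60 min after it. The labels give neither the strain background nor how GCR1 was inactivated, and they name no replicate culture. Each array gave a log2 ratio of the strains per probe.

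A time point had 1 array, which allows neither a replicate spread nor a test. A probe-pair error was taken instead from genes with 2 probes, as the log2 difference that 95% of the pairs on an array did not reach. It was 0.41 before glucose (3571 pairs), 0.48 after 20 min (3563 pairs) and 0.38 after 60 min (3572 pairs). It leaves out variation between cultures, labelling and arrays. The labels mark no array as a dye swap, and a constant dye bias of a probe cannot be told apart from a strain difference within an array. Such a bias would cancel in a difference between arrays of the same orientation.

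Which strain is the numerator is not stated. Null over wild type is the likely direction, since the mutant appears in the titles of the arrays and comes before the wild type in the design. GCR1 itself (YPL075W) had positive ratios of 0.97 before glucose, 0.91 after 20 min and 1.51 after 60 min, which goes against that direction if its probes lie within the deleted part. Where those probes lie in the gene is not known here. Genes of glycolysis, which GCR1 is known to activate, were negative at 0 min, with GPM1 at -5.55, ENO2 at -4.73, TDH3 at -3.83 and CDC19 at -3.43, as null over wild type would give. The direction is thus likely but rests on no statement of the dyes. Ratios are therefore called positive, the side on which GCR1 lay, or negative, and no strain is named as the higher one. Where 3 ratios of a gene follow each other without times, they are those at 0, 20 and 60 min.

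IMP dehydrogenase oxidises inosine monophosphate (IMP) to xanthosine monophosphate with NAD+, and GMP synthetase then adds an amino group from glutamine to give GMP. The IMP dehydrogenase step commits IMP to guanine nucleotides and limits the rate at which they are made, while the competing branch leads from IMP to AMP. In yeast IMD2 is the isozyme induced when guanine nucleotides run short, through a choice of transcription start site, and it gives resistance to the drug mycophenolic acid. IMD3 and IMD4 are the isozymes expressed when guanine nucleotides are sufficient. The coding sequences of the isozymes are much alike, and so is that of a further copy, IMD1, a pseudogene. A probe for an isozyme may therefore also capture cRNA of another, which leaves the division of signal among them uncertain.

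The 3 isozymes did not have a common ratio. IMD2 was positive on all 3 arrays and stood far from the others, IMD3 was slightly positive throughout, and IMD4 was positive before glucose and negative after it. GUA1 lay near 0 before glucose and was negative after it, close to IMD4. At 2-fold, a log2 ratio of 1.0 or more in size, 1 of 4 genes was positive at 0 min, against 1.09% of all genes measured. It was IMD2, which was also the 1 gene of the 4 positive at 20 min (17.1% of all genes) and at 60 min (16.2%). Negative at 2-fold were 0 of 4 genes at 0 min (2.25% of all genes), 0 of 4 at 20 min (16.5%) and 2 of 4 at 60 min (13.6%), IMD4 and GUA1. Since the genes were picked on these ratios, nothing is read from those shares. Ratios spread far less widely at 0 min than later. With the arrays scaled to equal spread, 3 of 4 genes were 2-fold positive at 0 min and 1, GUA1, was 2-fold negative at 60 min. That scaling widens the ratios of all genes at 0 min. Their share past 2-fold in that setting is not given here, so nothing is read from these counts.

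**Figure D1:**
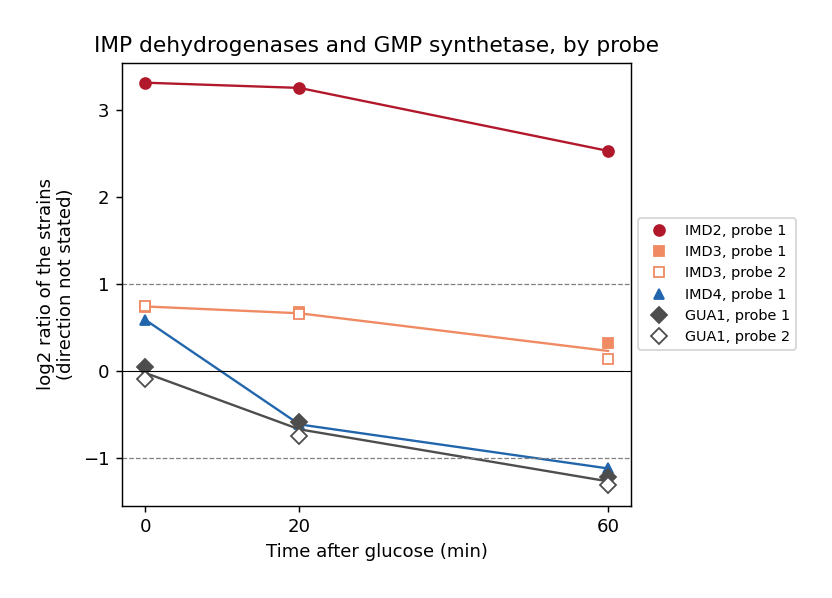
Log2 ratio of the 2 strains (vertical axis) against time after glucose in min (horizontal axis) for each probe of IMD2, IMD3, IMD4 and GUA1; lines join the mean over the probes of a gene, and dashed lines mark 2-fold. IMD2 stays above 2.5 on all 3 arrays, while IMD4 and GUA1 lie together at 20 and 60 min, with IMD4 at -1.12 and GUA1 at -1.27 at 60 min.

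IMD2, the isozyme induced on guanine nucleotide shortage, had log2 ratios of 3.32 before glucose, 3.26 after 20 min and 2.53 after 60 min from its single probe. These were 9.96-fold, 9.55-fold and 5.78-fold differences between the strains. At 0 min it ranked second from the top among 5596 genes, behind GCN4. Its rank from the top was 92 of 5597 genes at 20 min and 143 of 5596 at 60 min, on arrays where many more genes had large ratios. The ratio at 20 min was within 0.06 of that at 0 min, and the ratio at 60 min was 0.78 below that at 0 min. The second difference was larger than the probe-pair error of either array, which does not cover variation between arrays. IMD2 was among the 39 of 5593 genes (0.697%) at least 2-fold positive on every array. With no second probe, the value could not be checked on another part of the transcript.

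IMD3, one of the isozymes expressed when guanine nucleotides are sufficient, had ratios of 0.74 and 0.75 from its 2 probes at 0 min. The same probes gave 0.68 and 0.65 at 20 min, and 0.33 and 0.14 at 60 min. The mean was 0.74 before glucose, 0.67 after 20 min and 0.23 after 60 min, fold differences of 1.67, 1.59 and 1.17. Both probes were positive on every array, and the gene stayed within 2-fold on each. Its place on the arrays also differed: 97.3% of genes lay below IMD3 before glucose, 75.7% after 20 min and 57.6% after 60 min. At 60 min its ratio was within the probe-pair error of 0. In the values as deposited IMD3 had a range over the arrays of 0.51, against a median range of 0.98 over all genes, and varied least of the 4 genes. With equal spread its range was 1.47, and GUA1 varied least, with 0.83.

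IMD4, the isozyme gene that carries an intron, had ratios of 0.59 before glucose, -0.61 after 20 min and -1.12 after 60 min from its single probe. The differences between the strains were 1.51-fold, 1.53-fold and 2.17-fold in size, on opposite sides before and after glucose. Each of the 3 values was larger in size than 95% of probe-pair differences on its array. At 0 min 94.8% of genes lay below IMD4, at 20 min 28.3% and at 60 min 11.2%. Its range over the arrays was 1.71, larger than that of 82.0% of genes.

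GUA1, the GMP synthetase that acts after the isozymes, had ratios of 0.05 and -0.09 from its 2 probes at 0 min. They read -0.59 and -0.75 at 20 min, and -1.22 and -1.31 at 60 min. The mean was -0.02 before glucose, -0.67 after 20 min and -1.27 after 60 min, or 1.01-fold, 1.59-fold and 2.41-fold in size. The probes fell on opposite sides of 0 at 0 min, a ratio not distinguishable from 0, and both were negative on the other arrays. At 60 min 8.86% of genes lay below GUA1, the lowest place of the 4 genes on any array. Its 2 probes differed by 0.13, 0.16 and 0.10 on the arrays at 0, 20 and 60 min, within the probe-pair error.

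**Figure D2:**
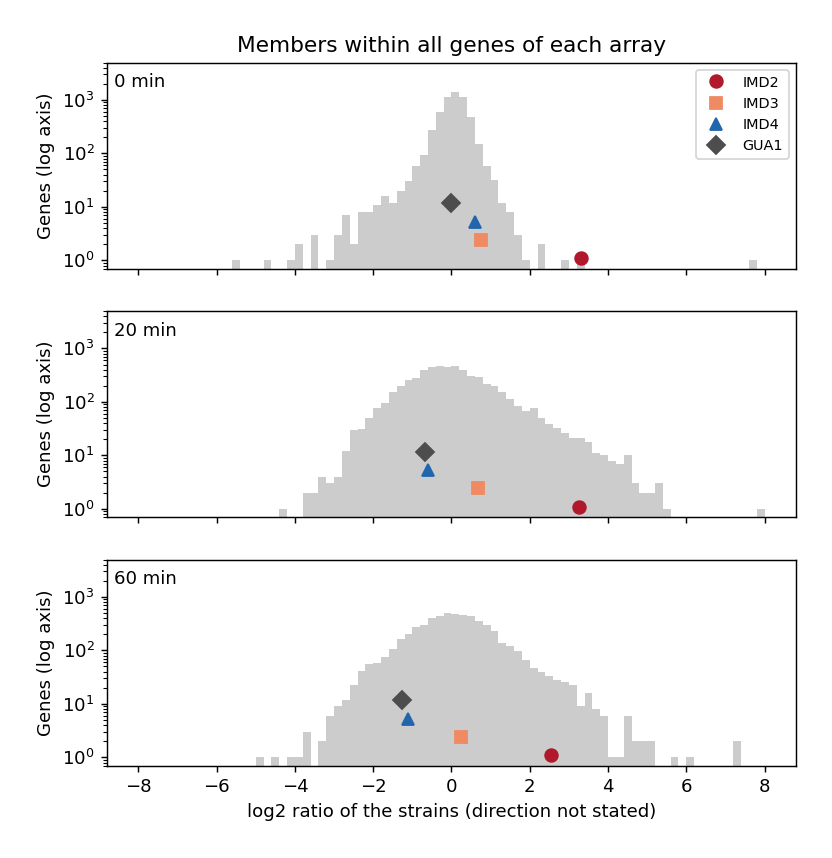
Number of genes (vertical axis, log scale) by log2 ratio of the strains (horizontal axis, bins of equal width) on the arrays at 0, 20 and 60 min, with the 4 genes marked at their mean ratio; the height of a marker has no meaning. The distribution at 0 min is narrow and IMD2 lies outside nearly all of it. At 20 and 60 min the distribution is wide and IMD2 lies in its positive tail.

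The isozymes were also set against each other on the same array. The IMD2 ratio exceeded that of IMD3 by 2.57 before glucose, 2.59 after 20 min and 2.30 after 60 min (log2), nearly the same distance on each array as deposited. With the arrays scaled to equal spread that distance was 6.20, 1.94 and 1.84. The IMD2 ratio exceeded that of IMD4 by 2.72 before glucose, 3.87 after 20 min and 3.65 after 60 min. With equal spread that distance was 6.56, 2.89 and 2.92, so that it was largest before glucose and not after it. IMD3 and IMD4 lay 0.15 apart at 0 min, within the probe-pair error, and 1.28 and 1.35 apart at 20 and 60 min, beyond it. IMD4 and GUA1 showed the opposite: they lay 0.61 apart at 0 min and 0.06 and 0.15 apart at 20 and 60 min. The order of the ratios was IMD2, IMD3, IMD4 and GUA1 on every array, and the neighbours that did not differ beyond the probe-pair error were IMD3 and IMD4 at 0 min and IMD4 and GUA1 at 20 and 60 min.

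The change of the ratio with time separated the genes further. The differences share arrays and are not independent of each other. From 0 to 20 min the ratio changed by -0.06 for IMD2 and -0.08 for IMD3, against a median of -0.09 over 5593 genes, and by -1.20 for IMD4 and -0.65 for GUA1. IMD4 was thus the 1 gene of 4 at least 2-fold down in that difference, as were 16.4% of all genes. Relative to the median gene, IMD2 and IMD3 stood at 0.03 and 0.02, within the probe-pair error. This rests on the scale of the arrays as deposited: with equal spread the difference was -5.32 for IMD2 and -1.06 for IMD3.

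From 20 to 60 min the ratios of all 4 genes were lower by similar amounts, IMD2 and IMD3 still being above 0 at 60 min. The differences were -0.72 for IMD2, -0.43 for IMD3, -0.51 for IMD4 and -0.60 for GUA1, while the median gene moved by 0.16. Relative to that median they were -0.88, -0.59, -0.67 and -0.76. None of the 4 reached 2-fold down, as 10.2% of all genes did, and 41.3% of all genes were below 0 in this difference. Both probes of IMD3 (-0.35 and -0.52) and of GUA1 (-0.63 and -0.57) had the same sign. The difference of IMD3 was within the probe-pair error at 20 min, and those of the other 3 genes were beyond it.

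From 0 to 60 min the differences were -1.71 for IMD4 and -1.25 for GUA1, both at least 2-fold down, as were 13.3% of all genes. With equal spread GUA1 had -0.83 and no longer reached 2-fold. IMD2 had -0.78 and IMD3 -0.51 in that difference. In the values as deposited, all 4 genes had a lower ratio at each later time, a pattern shared by 14.9% of genes, though for IMD2 and IMD3 the step from 0 to 20 min was within the probe-pair error. That step turned positive for both genes when each array was centred on its median.

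The genes most like each one over the 3 arrays were found by the Euclidean distance of the log2 ratios. IMD2 had no close match by this distance. Only GCN4 had a higher ratio at 0 min, so few genes could lie near IMD2. Nothing is read from the size of its distances. The nearest gene was URA3, of uracil synthesis, with ratios of 2.83 before glucose, 2.07 after 20 min and 2.39 after 60 min, at a distance of 1.29. SPG4 and the polyamine exporter TPO2 followed at 1.69 and 1.71. IMD3 lay nearest to YLL067C and YEL077C, at 0.19 and 0.21, and to PXA2, a peroxisomal transporter subunit, at 0.23.

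IMD4 lay nearest to the kinetochore gene SPC105 at a distance of 0.13, and then to the histone H2A gene HTA1 and the replicative helicase gene MCM3, both at 0.22. SPC105 had 0.47 before glucose, -0.62 after 20 min and -1.15 after 60 min. GUA1 lay nearest to NSR1, a nucleolar protein of ribosomal RNA processing, at 0.12, with ERP4 and PTH4 both at 0.14. NSR1 had -0.01, -0.73 and -1.16. The distance between IMD4 and GUA1 was 0.63, and 165 genes lay closer to IMD4 than GUA1 did. From IMD2 the nearest of the other 3 was IMD3, at 4.31, with 989 genes closer.

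**Figure D3:**
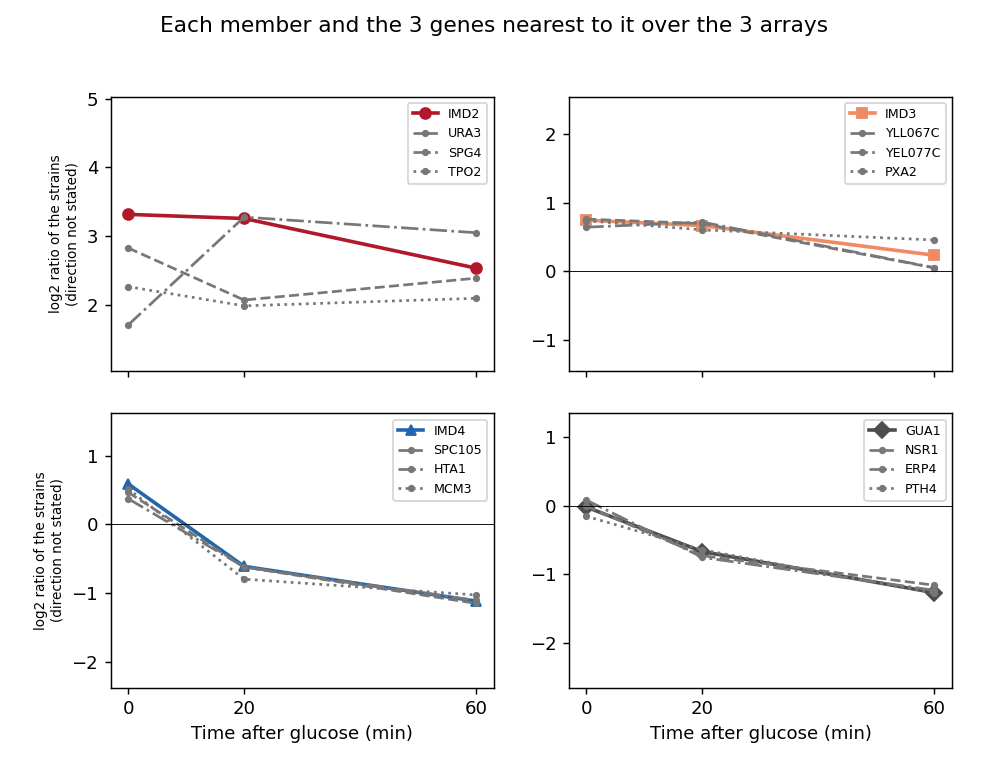
Log2 ratio of the strains (vertical axes, which span the same number of log2 units) against time after glucose in min (horizontal axes) for each of the 4 genes (coloured) and the 3 genes at the smallest distance from it (grey). The grey lines lie close to IMD3, IMD4 and GUA1, at distances of 0.12 to 0.23, while those beside IMD2 have distances of 1.29 to 1.71. Few genes had a ratio near that of IMD2 at 0 min, so nothing is read from that contrast.

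The nearest measured genes on either side of each gene on its chromosome were also read. They were taken by position, after the values had been seen, with the gene order of the R64 reference annotation. Beside IMD2, the acid phosphatase gene PHO12 had 0.20 before glucose, -1.52 after 20 min and -2.67 after 60 min. On the other side, YHR218W had -0.12, -0.23 and -0.06. Beside IMD4, the calcineurin subunit gene CMP2 had 0.26, 0.90 and 0.65 and the signal peptidase subunit gene SPC2 had 0.28, 0.70 and 0.88, positive where IMD4 was negative. Beside GUA1, the kinase gene SKY1 had 0.38, 0.32 and -0.37 and TRS130 had 0.11, -1.46 and -0.70. Beside IMD3, the autophagy gene ATG23 had 0.15, 1.05 and 1.69 and the calcineurin subunit gene CNA1 had 0.37, -1.06 and -0.12.

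The wider purine pathway was described through 9 lists with 65 genes measured. Over them, the genes past 2-fold numbered 2 positive and 0 negative before glucose, 15 positive and 16 negative after 20 min, and 12 positive and 7 negative after 60 min. As shares of the 65 genes they were 3.08% positive and 0% negative before glucose, against 1.09% and 2.25% of all genes. They were 23.1% and 24.6% after 20 min, against 17.1% and 16.5% of all genes, and 18.5% and 10.8% after 60 min, against 16.2% and 13.6%. The counts of the single lists stand against the same shares of all genes, and nothing particular to a list is read from them. The median of these genes was 0.10 before glucose, -0.14 after 20 min and 0.09 after 60 min, against 0.07, -0.08 and 0.05 for all genes. The 2 listed genes that were positive beside IMD2 on pyruvate were GCN4 and URH1, a nucleosidase of uridine and not of purines. With equal spread the counts at 0 min were 8 positive and 3 negative, and 9 genes were negative at 20 min. The share of all genes in that setting is not given here.

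Of the enzymes that make IMP, the substrate of the IMP dehydrogenases, 1 of 8 had a ratio above 0 at 20 min, against 47.1% of all genes. At 0 min 0 of 8 measured genes were beyond 2-fold and the list median was 0.13. After 20 min, 2-fold negative ratios were found for 5 of 8, against 16.5% of all genes, and positive ones for 0. The median was -1.11, and with equal spread 2 of 8 were 2-fold negative. After 60 min the counts were 0 negative and 1 positive, with a median of 0.17. ADE17, which carries out the last steps of IMP synthesis, had 0.15 before glucose, -2.79 after 20 min and 2.23 after 60 min. Its isozyme ADE16, the 1 gene of the list above 0 at 20 min, had 0.36, 0.99 and -0.38. The isozymes of these steps thus lay on opposite sides of 0 at 20 and 60 min. ADE1 had -0.14, -1.76 and 0.58, ADE4, the first committed enzyme, had 0.48, -1.23 and -0.02, and ADE13 had -0.14, -1.21 and -0.09. GUA1 and IMD4 were negative at 60 min, where the IMP list was split around 0, with 4 of 8 genes above it.

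PRPP synthetases, which make the ribose donor of purine synthesis, were within 2-fold in all 5 genes on every array, with medians of 0.44, -0.29 and -0.15. Of 9 genes that supply one-carbon units, 0 were beyond 2-fold at 0 min. After 20 min 1 was 2-fold positive and 2 were negative, and after 60 min 0 and 1. The cytosolic enzyme gene ADE3 had 0.46 before glucose, 1.64 after 20 min and 0.77 after 60 min. MIS1, the mitochondrial counterpart of ADE3, had -0.19, -1.05 and -2.21, and the dehydrogenase gene MTD1 had 0.34, -2.05 and -0.11.

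On the AMP branch, which competes for IMP, ADE12 was on the opposite side to IMD4 and GUA1 after glucose. ADE12, adenylosuccinate synthase, had 0.79 before glucose, 1.27 after 20 min and 2.62 after 60 min. The adenylate kinase gene ADK1 had -0.18, 1.96 and 1.17. Of the 4 genes of the branch, 0 were beyond 2-fold before glucose, 2 were positive and 1 negative after 20 min and 2 were positive and 0 negative after 60 min.

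Beyond GMP, the guanylate kinase gene GUK1, which makes GDP, lay near 0 on all arrays, at -0.10, 0.07 and -0.17. YNK1, the nucleoside diphosphate kinase that makes GTP, had -0.29 before glucose, 2.24 after 20 min and 0.52 after 60 min. The ribonucleotide reductase gene RNR3, a large subunit induced by DNA damage, had 0.22, 3.20 and 3.56. The small subunits RNR2 and RNR4 had -0.11 and -0.21 before glucose, 1.22 and 1.06 after 20 min and 1.72 and 2.48 after 60 min. RNR1, also a reductase gene of the list, lay on the other side after glucose, with 0.59, -0.38 and -1.51. Of these kinases and reductase subunits, 6 genes in all, 0 were beyond 2-fold before glucose, 4 were positive and 0 negative after 20 min and 3 were positive and 1 negative after 60 min, with medians of -0.10, 1.14 and 1.12.

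Salvage routes also feed GMP and IMP. HPT1, which turns guanine and hypoxanthine into GMP and IMP, had 0.56 before glucose, -2.01 after 20 min and -1.0 after 60 min. XPT1, which makes xanthosine monophosphate from xanthine, had -0.54, -1.83 and -0.85. The adenine enzymes APT1 and AAH1, a phosphoribosyltransferase and a deaminase, had -0.11 and -0.22 at 0 min, -1.16 and -1.42 after 20 min, and -1.80 and -1.62 after 60 min. AMP deaminase AMD1 had 0.22, -0.21 and 0.27, and the guanine deaminase gene GUD1 had 0.20 before glucose, 0.53 after 20 min and 1.04 after 60 min. The GUD1 value at 20 min was at low signal, that is, it matched a ratio of whole numbers up to 8, which a few units of signal would give. URH1, a nucleosidase that acts on uridine rather than on a purine, had the largest ratios of the list, 1.28, 3.32 and 3.94. The list also held the pyrimidine nucleotidase gene SDT1, with -0.13, -1.22 and 0.09. Counts over the list include both genes. Of its 16 genes 1, URH1, was positive and 0 negative at 2-fold before glucose. The counts were 2 and 6 after 20 min and 2 and 2 after 60 min. List medians were 0.13, -0.18 and -0.70.

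**Figure D4:**
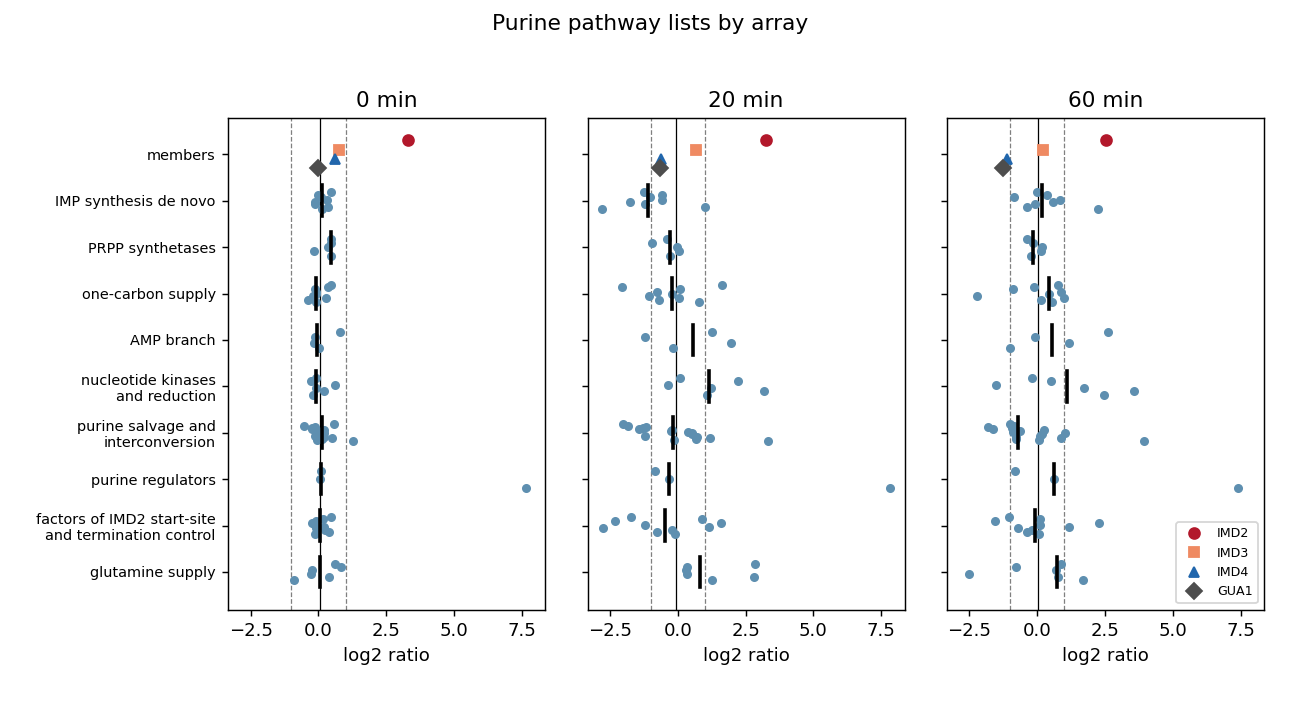
Log2 ratio of the strains (horizontal axes) for IMD2, IMD3, IMD4 and GUA1 (top line) and for each gene of 9 purine pathway lists (points; thick bars are list medians) on the arrays at 0, 20 and 60 min; dashed lines mark 2-fold and the thin solid line the median of all genes. At 0 min IMD2, GCN4 among the regulators and the uridine nucleosidase URH1 in the salvage list are the points beyond 2-fold. At 20 min the IMP synthesis list has its median at -1.11.

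Among regulators of purine genes, GCN4, the activator of amino acid and some purine genes, had 7.66 before glucose, 7.83 after 20 min and 7.40 after 60 min. It was the 1 gene above IMD2 at 0 min. The other 2 regulators, BAS1 and PHO2, were within 2-fold on every array.

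A further list of 10 genes was drawn up for start-site choice, elongation or early termination of transcription, as at IMD2. It included SDT1, a nucleotidase gene that is not a transcription factor and was also in the salvage list. Of the 10 genes 0 were beyond 2-fold at 0 min. At 20 min 2 were positive and 4 negative, with SDT1 among the negative ones at -1.22, and at 60 min 2 and 2. The phosphatase gene SSU72 had -0.08 before glucose, -2.75 after 20 min and -0.70 after 60 min. The helicase gene SEN1 had -0.09, -2.32 and -1.55, and its partner NRD1 had 0.47, -1.73 and -1.04. The SEN1 probe was at low signal at 60 min. DST1, the elongation factor TFIIS, had -0.26, 1.58 and 2.28.

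GMP synthetase needs glutamine, so 6 genes of glutamine and glutamate metabolism and its control were listed. At 20 min, when GUA1 was negative, 3 of the 6 were at least 2-fold positive, as were 17.1% of all genes. The other 3, GLN3, GLT1 and GDH1, lay above 0 but within the probe-pair error, and 47.1% of all genes lay above 0 on that array. GLN1, glutamine synthetase, had 0.62 before glucose, 2.85 after 20 min and 0.86 after 60 min. The glutamate dehydrogenase gene GDH2 had 0.38, 2.82 and 0.79, GDH3 had -0.89, 1.27 and 1.69, and GDH1 had -0.26, 0.35 and -2.49. Of 6 genes 0 were beyond 2-fold before glucose, 3 were positive and 0 negative after 20 min and 1 was positive and 1 negative after 60 min, with medians of 0.07, 0.81 and 0.75.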

How the data were processed

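The cRNA of each array was labelled with Cy5 in channel 1 and Cy3 in channel 2 after linear amplification with an Agilent kit, per the labels. The deposited value table held, for each array, a log2 ratio of the channels per probe, with its base read from the spacing of tied values. How the authors scanned, background-corrected and normalised the arrays is not stated in the labels or the table. Probe medians stood at 0.02 before glucose, -0.15 after 20 min and -0.08 after 60 min. Precision is limited by the number of arrays.

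Of 10807 probes, 9202 had 1 gene symbol in the platform annotation, 0 several and 1605 none. Probes of a gene were averaged, and 5593 of 5598 genes had a value on all 3 arrays. The probes' build is unknown here, so no genome coordinates are given, and the R64 annotation served only for names and for which genes neighbour each other. ADE5,7 was not analysed here. Genes were counted at 2-fold. Genes named were the 4 genes themselves, GCR1, up to 4 genes per list of largest ratio beyond 2-fold on any array, 8 genes of steps adjoining the 4, and the 3 genes nearest to each. Other genes were named after their values were seen. The genes, lists and alternatives were chosen with earlier results of these data known. Calculations used Python 3.11.15 with pandas 2.3.3 and were tested on simulated data.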

Additional observations from a re-analysis of the deposited data

Results flagged for a closer look

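The genes examined were 34, the 4 genes and the pathway genes named by the rule above. Of these, 7 had ratios on opposite sides of 0 on different arrays, each larger in size than 95% of probe-pair differences. Most had been picked or named for large ratios on these arrays, and the share of all genes with this pattern is not given here. Nothing is therefore read from the count. Pathway genes outside that rule, such as RNR1 and GLT1, were not examined. With 1 array per time point the difference was not tested. IMD4 had 0.59 before glucose, -0.61 after 20 min and -1.12 after 60 min. ADE17 had -2.79 at 20 min and 2.23 at 60 min. ADE1 had -1.76 at 20 min and 0.58 at 60 min. ADE4 had 0.48 at 0 min and -1.23 at 20 min. HPT1 had 0.56 before glucose, -2.01 after 20 min and -1.0 after 60 min. NRD1 had 0.47 before glucose, -1.73 after 20 min and -1.04 after 60 min. GDH3 had -0.89 before glucose, 1.27 after 20 min and 1.69 after 60 min.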

How the results depend on the processing

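No paired analysis was possible because each time point had 1 array. Centring each array on its median moved no ratio of the 4 genes beyond the spread between probes and no count of them. Neither did each probe alone, a check open only to IMD3 and GUA1. The median over probes equals the mean for 1 or 2 probes, so it could move nothing. Low-signal values were those that matched, to 0.001 and after each array's offset, a ratio of whole numbers up to 8. Leaving them out could not change the 4 genes either, as their probes matched that rule 0 times. For IMD2 and IMD4, with 1 probe each, only centring and equal spread could thus move a ratio. Giving the arrays an equal interquartile range after centring, a step that by design cancels their unequal spread, multiplied ratios by 2.41 at 0 min, 0.75 at 20 min and 0.80 at 60 min. It took IMD2 to 7.81, 2.49 and 1.99, with differences from 0 min of -5.32 and -5.82 at 20 and 60 min. IMD3 had 1.62 at 0 min, with differences of -1.06 and -1.47. IMD4 had 1.25, -0.40 and -0.93, with differences of -1.65 and -2.19, and GUA1 had -0.22, -0.44 and -1.05, with differences of -0.22 and -0.83. Scaling gave 3 of the 4 genes positive at 0 min and 1 negative at 60 min. Pathway genes then numbered 8 positive and 3 negative at 0 min and 9 negative at 20 min. A threshold of 1.5-fold gave 3 of the 4 genes positive at 0 min, 2 positive and 2 negative at 20 min. For pathway genes it gave 6 positive and 1 negative at 0 min and 21 positive and 20 negative at 60 min. At 3-fold, 0 of the 4 genes were negative at 60 min, and pathway genes numbered 1 positive before glucose, 8 positive and 8 negative after 20 min and 4 negative after 60 min. The shares of all genes with equal spread, at 1.5-fold and at 3-fold are not given here, so nothing is read from these counts.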
